A study of Mus musculus with 7 samples.

Results

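The levels of 10 transcription factor genes linked to effector and tissue-resident regulatory T cells (Tregs) were compared between skin and lymph node: Rora, Gata3, Batf, Irf4, Prdm1, Maf, Pparg, Nfil3, Bhlhe40 and Ahr. They were taken by exact gene symbol from a table of 24084 symbols, and 10 of 10 were present. The 3 libraries of one group came from Tregs of the skin-draining lymph nodes (SDLN) and the 4 of the other from Tregs of telogen skin, the resting stage of the hair cycle. All mice were 6 weeks old and of the Foxp3-DTR strain, also given as Foxp3-DTR/GFP, in which the diphtheria toxin receptor and green fluorescent protein are expressed under control of Foxp3, so both groups carried this allele. The sources used here give neither the sort gates nor the number of animals behind a library, so p-values measure the spread between these libraries, which may be technical.

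Tregs are CD4 T cells that restrain immune responses and depend on the transcription factor Foxp3. After activation in lymphoid organs, some of them take on an effector state and settle in barrier and other tissues. In that course antigen receptor signals induce Irf4 and Batf, which bind DNA together, and factors such as Prdm1, Maf, Gata3 and Rora then mark the effector and tissue-resident cells.

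Gene counts summed to 11009609 to 14785751 per library. Across all tested genes, log2 CPM (counts scaled to library size) correlated at 0.964 to 0.981 between SDLN libraries, at 0.624 to 0.699 between skin libraries and at 0.617 to 0.700 between tissues. Foxp3 was present in every library, at 69.0 to 102 CPM in SDLN and 107 to 248 CPM in skin. The 10 listed Treg and T cell genes, Foxp3 among them, went the other way as a sum. They summed to 13629 to 14997 CPM in SDLN and to 7641 to 13497 CPM in skin, with a median log2 fold change of -0.70. A label of skin 1, its tissue tag, reads as lymph node, but title and source name say skin, and it was kept as skin. SDLN 3 alone held transcripts of the Y-linked gene Ddx3y, with 3877 counts against 2 or fewer elsewhere. It had 4 counts of Xist, a transcript of female cells, against 4653 to 11758 elsewhere. By these genes SDLN 3 was male and the other libraries female. Markers of other cells set single skin libraries apart. The 8 keratinocyte markers summed to 1239 CPM in skin 3, against 0.162 to 20.7 CPM elsewhere in skin, and 6 fibroblast markers to 2000.5 CPM in skin 3, against 2.85 to 8.84 CPM elsewhere. For 14 macrophage and dendritic cell markers the sums were 3172, 2734, 796 and 10419 CPM in skin 1 to 4, against 344 to 550.2 CPM in SDLN. In such bulk libraries, fewer cells of a type and less RNA per cell cannot be told apart.

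Of the 10 factors, 9 were tested, and 6 of these rose in skin: Rora, Nfil3, Maf, Prdm1, Irf4 and Gata3 (edgeR's quasi-likelihood test, Benjamini-Hochberg adjusted p under 0.05 over 11376 genes). None fell, 3 did not pass, and Pparg was too low to be tested. Over all tested genes, 7.24% passed, 3.28% higher in skin and 3.96% lower. At an unadjusted p under 0.05, 7 factors were higher and 0 lower, and no factor was lower with DESeq2 or limma-voom either. The 9 tested factors had a median log2 fold change of 2.77, against 0.05 over all tested genes. Each of the 9 lay above the low-count filter's level of 0.762 CPM in all 7 libraries, so none entered the test through one tissue alone. For 7 of the 9, every skin library lay above every SDLN library, a pattern that 10.1% of all tested genes showed, while 26.6% had no overlap in either direction. The factors were chosen with earlier results of these data known, so these comparisons with all genes are no independent support. The number of factors that rose was 1, 1 and 3 without SDLN 1, 2 and 3. It was 7, 6, 6 and 6 without skin 1, 2, 3 and 4. The SDLN group was both the smaller and the one with less spread, and the parts of these cannot be told apart. Over all genes the number called higher moved alike, from 373 to 39, 33 and 61 without SDLN 1, 2 and 3.

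**Figure D1:**
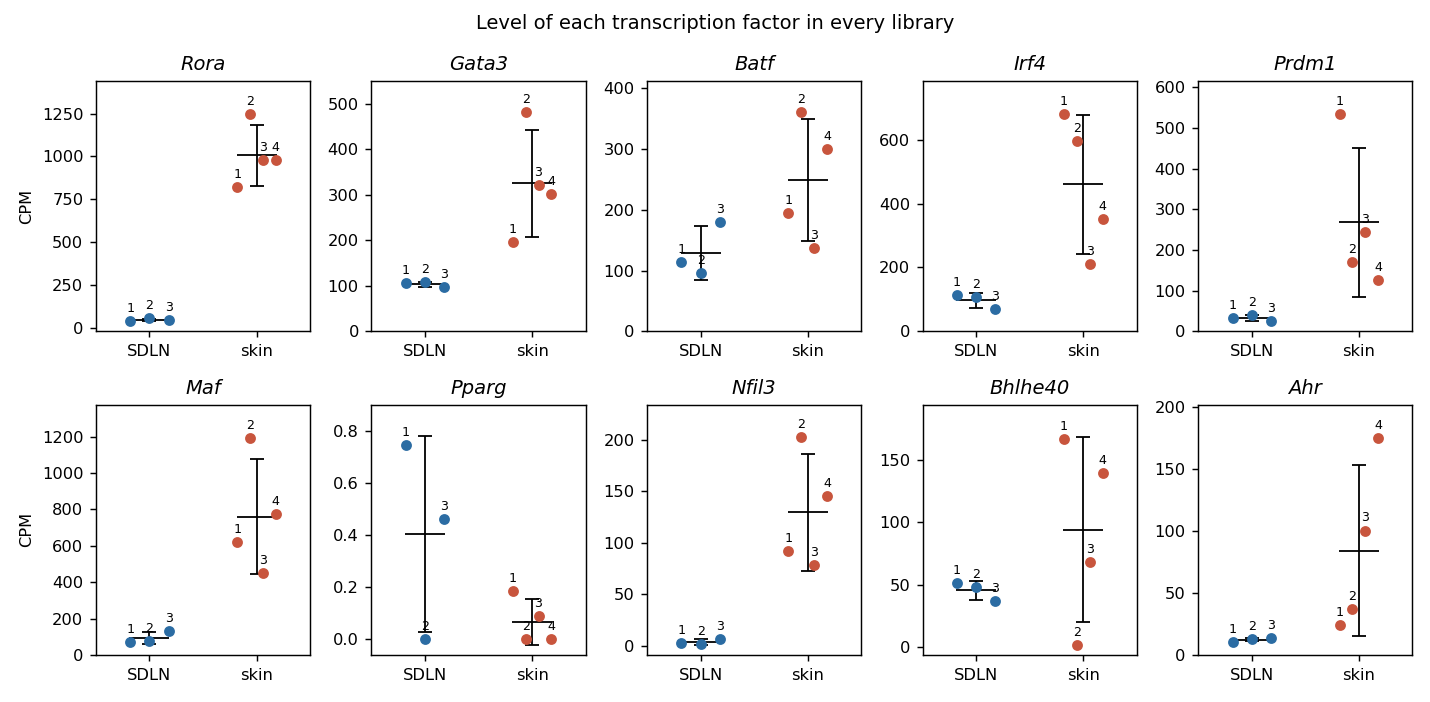
Level of each of the 10 factors in CPM (vertical axis, linear and separate for each gene) in the 3 SDLN and 4 skin libraries. Each point is a library with its replicate number, and the bar and whiskers give the mean and SD; for Rora the skin libraries sit between 821 and 1249 CPM and the SDLN libraries between 40.2 and 53.7 CPM.

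The 10 genes lie on 7 chromosomes and are protein-coding in the GENCODE M21 annotation of mm10. Rora spans chromosome 9, 68653786 to 69388246, on the plus strand, by far the longest of them at 734461 bases with 11245 bases of exon. Gata3 is on chromosome 2 (9857078 to 9890034), Maf on chromosome 8 (115682942 to 115707794) and Prdm1 on chromosome 10 (44437177 to 44528501). Irf4 (30749226 to 30766976) and Nfil3 (52967209 to 52981073) share chromosome 13. Ahr (35497974 to 35535038) and Batf (85686669 to 85709087) share chromosome 12, and Bhlhe40 (108660629 to 108666925) and Pparg (115360951 to 115490399) share chromosome 6. Batf, Irf4, Prdm1 and Nfil3 overlap no other annotated gene. The other 6 overlap at least 1, on the opposite strand for Rora, Maf, Pparg, Bhlhe40 and Ahr, and on both strands for Gata3, which overlaps 3. No source used here states whether counting used strand, so reads from such partners cannot be told apart from those of the factor.

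RefSeq promoter windows on GRCm38.p6, the build also called mm10, were found for 7 of the 10 factors, not for Maf, Bhlhe40 and Ahr. The windows of 3 are printed because they belong to the factors with the largest folds, Nfil3 and Rora, and to Batf, the one with the highest level per length. Each gives the 250 bases before the transcription start, 5′ to 3′. Capitals mark sites that members of the set could bind, on either strand.
Rora (chr9:68653536-68653785, plus strand): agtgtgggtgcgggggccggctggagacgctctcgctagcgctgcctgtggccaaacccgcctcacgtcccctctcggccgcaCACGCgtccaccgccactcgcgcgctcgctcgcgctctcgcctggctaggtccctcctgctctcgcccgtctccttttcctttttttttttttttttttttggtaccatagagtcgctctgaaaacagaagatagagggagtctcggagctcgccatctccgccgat
Nfil3 (chr13:52981040-52981289, minus strand): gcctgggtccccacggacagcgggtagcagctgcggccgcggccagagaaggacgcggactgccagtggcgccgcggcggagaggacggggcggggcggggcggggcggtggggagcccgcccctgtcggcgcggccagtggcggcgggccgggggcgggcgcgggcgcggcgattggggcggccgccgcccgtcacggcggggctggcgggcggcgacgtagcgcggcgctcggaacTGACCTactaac
Batf (chr12:85686470-85686719, plus strand): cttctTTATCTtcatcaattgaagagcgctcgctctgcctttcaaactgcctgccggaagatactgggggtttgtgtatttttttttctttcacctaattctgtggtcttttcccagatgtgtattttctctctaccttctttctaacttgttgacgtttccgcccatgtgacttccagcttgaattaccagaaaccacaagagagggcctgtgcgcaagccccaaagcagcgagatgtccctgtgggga
In Rora the capitals are CACGC, the reverse complement of GCGTG, the core of the element that Ahr binds. In Nfil3 they are TGACCT, the reverse complement of AGGTCA, the hexamer that Rora and other nuclear receptors bind, which starts 12 bases before the transcription start. In Batf they are TTATCT, the reverse complement of AGATAA, a site for GATA factors, 245 bases before the start. GCGTG also stood in the windows of Irf4, Prdm1 and Pparg, thus in 4 of 7 genes, and in 28.2% of 32851 windows of this length in the table. AGGTCA stood in Nfil3 and Pparg and in 14.0% of all windows, and AGATAA in Batf and in 9.99%. None of the members' windows held the E-box CACGTG (6.02% of all windows), the AP-1 site TGACTCA (4.46%), the interferon response element (2.98%) or the Nfil3 sites TTACGTAA (0.113%) and TTATGTAA (0.819%). All motifs were searched on both strands; TGACTCA read on the other strand is TGAGTCA, and none of these motifs contains another. Guanine and cytosine made up 81.6% of the Nfil3 window, 61.2% of that of Rora and 46.4% of that of Batf, against a median of 52.4% over all windows.

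Rora and Pparg are nuclear receptors, with the highest and the lowest mean CPM of the 10 factors in skin. Rora, which guides innate lymphoid cells and tissue Tregs and acts in the circadian clock, had 40.2, 53.7 and 46.1 CPM in SDLN 1 to 3. It had 821, 1249, 978 and 982 CPM in skin 1 to 4. Every skin library was at least 15.3 times the highest SDLN library, and the skin libraries were within 1.52-fold of each other, the tightest of the 9 tested factors in skin. Rora ranked 2 of 11376 genes by p-value (log2 fold change 4.43, SE 0.28, edgeR adjusted p = 0.00104). It was the 1 factor that passed under each of 21 alternatives, with log2 fold changes of 4.29 to 4.88 and adjusted p of 6.27e-63 to 0.0206. Pparg, which senses fatty acids and is known from Tregs of visceral fat, had 11, 0 and 6 counts in SDLN and 2, 0, 1 and 0 counts in skin. Its 17 counts over SDLN and 3 over skin gave a level 6.53 times higher in SDLN, with a 95% counting interval of 1.89 to 34.8 that covers counting error only. Without the low-count filter Pparg did not pass (log2 fold change -2.48, edgeR adjusted p = 0.466). Of 10 listed Pparg target genes, 6 were tested and none passed with edgeR, which at 7.24% over all genes cannot be told from the background. Fabp4, which carries fatty acids in fat cells and macrophages, had 191 CPM in skin 3 and 0.0809 CPM or less in the other skin libraries. The adipocyte markers Adipoq, Plin1, Cidec and Lep had no count in skin, and 2 of them had none in SDLN either.

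Maf, Nfil3 and Batf are basic leucine zipper factors, and 2 of them rose. Nfil3, a repressor that shapes innate lymphoid cells and clock output, was nearly silent in SDLN, at 2.51, 1.59 and 6.26 CPM. In skin it had 91.7, 203, 78.5 and 145 CPM. The lowest skin library was 12.6 times the highest SDLN library, and the log2 fold change, 5.23 (SE 0.72, edgeR adjusted p = 0.0110), exceeded that of the other tested factors. Maf, which promotes interleukin-10 in T cells, had 69.7, 74.1 and 131 CPM in SDLN. In skin it had 620, 1193, 451 and 776 CPM, so the tissues were well apart although SDLN 3 stood above its group (log2 fold change 3.05, SE 0.44, adjusted p = 0.0116). Neither Maf nor Nfil3 passed without SDLN 1 or SDLN 2, at log2 fold changes of 2.88 and 2.91 for Maf and 5.03 and 4.87 for Nfil3 (adjusted p 0.0859 to 0.0952 for Maf and 0.0668 to 0.0902 for Nfil3). Over the 21 alternatives the range was 1.89e-10 to 0.110 for Maf and 1.10e-14 to 0.116 for Nfil3.

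Batf, a small AP-1 factor that needs a Jun partner and binds beside Irf4, had 113, 95.6 and 180 CPM in SDLN and 195, 361, 138 and 300.3 CPM in skin. SDLN 3 exceeded skin 3, so the tissues overlapped, and Batf did not pass (log2 fold change 0.94, SE 0.41, adjusted p = 0.277). It passed under none of the 21 alternatives, with log2 fold changes of 0.69 to 1.34 and adjusted p of 0.0786 to 0.673. Among partners, Junb rose from 2.099 ± 0.406 CPM (SD, n = 3) to 66.1 ± 37.3 CPM (SD, n = 4) (log2 fold change 4.97, adjusted p = 0.0119). Jun, at 1.86 against 12.9 CPM, and Jund, at 2.42 against 22.2 CPM, did not pass (adjusted p = 0.337 and 0.217). The relative Batf3 had no count in SDLN and 23 in skin, 20 of them in skin 1.

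Irf4, the interferon regulatory factor induced by antigen receptor signals, had 114, 107 and 69.4 CPM in SDLN. In skin it had 682, 595, 211 and 353 CPM, with the lowest skin library 1.86 times the highest SDLN library. Irf4 rose (log2 fold change 2.25, SE 0.46, edgeR adjusted p = 0.0380). Its call was lost when any 1 SDLN library was left out (log2 fold change 2.05 to 2.37, adjusted p from 0.165 to 0.176) and without the low-count filter (adjusted p = 0.0611). The alternatives ranged from 4.86e-05 to 0.176. Irf8, its closest relative among the listed genes, was at 6.56 to 10.5 CPM in SDLN and 32.1 to 58.1 CPM in skin without overlap, and did not pass (log2 fold change 2.28, adjusted p = 0.0846).

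The zinc finger factors Gata3 and Prdm1 both rose. Gata3, the factor of type 2 helper and innate lymphoid cells that also sustains Tregs in tissues, was the steadiest in SDLN, at 105, 108 and 97.7 CPM. Skin held 196, 481, 322 and 302 CPM, and the lowest of these, skin 1, was 1.805 times the highest SDLN library. The log2 fold change was 1.65 (SE 0.34, edgeR adjusted p = 0.0380), and the call was lost when any 1 SDLN library was left out (log2 fold change 1.59 to 1.67, adjusted p from 0.165 to 0.176). It was also lost without the low-count filter (adjusted p = 0.0693) and against a fold of 1.5 (adjusted p = 0.0552), and the alternatives ranged from 0.000191 to 0.242. Prdm1 encodes the repressor Blimp-1, which marks effector Tregs. It had 32.7, 40.5 and 25.7 CPM in SDLN and 534, 170, 243 and 125 CPM in skin, so that skin 1 held 4.26 times as much as skin 4. Prdm1 rose (log2 fold change 3.02, SE 0.57, adjusted p = 0.0327). It did not pass when any 1 SDLN library was left out (log2 fold change 2.86 to 3.19, adjusted p from 0.141 to 0.167) or with limma-voom (adjusted p = 0.0589), and the alternatives ranged from 1.85e-06 to 0.167. Without skin 1, its highest library, Prdm1 passed at a log2 fold change of 2.45. Type 2 innate lymphoid cells share Gata3 and Rora with tissue Tregs. Their 7 listed markers summed to 15.2 to 20.4 CPM in SDLN and to 1.29, 2.83, 49.5 and 138 CPM in skin 1 to 4, with Il5 at 30.3 CPM in skin 4 and no count in the other skin libraries. Il9 and Hs3st1 had no count in skin. The part of such cells in the Gata3 and Rora values was not tested.

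Bhlhe40 and Ahr are basic helix-loop-helix factors, and neither passed the test. Bhlhe40, a repressor that limits interleukin-10 in helper cells and is induced by activation, had 51.4, 48.1 and 36.8 CPM in SDLN. Skin held 167, 1.86, 67.9 and 139.6 CPM. The other 3 skin libraries were above every SDLN library, while skin 2 had 23 counts, a 95% exact Poisson interval of 1.18 to 2.79 CPM for counting error alone, 36.5-fold under the next skin library. The log2 fold change was 1.05 (SE 1.08, edgeR adjusted p = 0.717). Without skin 2 it was 1.45 and still did not pass (adjusted p = 0.0992, the lowest of the alternatives, which reached 0.979). Its direction turned under limma-voom, to -0.14, and with the replicate number as a block, settings that also moved the median of all tested genes from 0.05 to -0.62 and -0.54. The relative Bhlhe41 had 0.386 against 3.61 CPM, short of the threshold (adjusted p = 0.524).

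Ahr, the receptor for dietary and microbial ligands and xenobiotics at barriers, was even in SDLN, at 10.8, 12.5 and 13.6 CPM. In skin it ran from 24.0 and 37.1 CPM in skin 1 and 2 to 100.3 and 175 CPM in skin 3 and 4, a 7.29-fold range. All skin libraries lay above all SDLN libraries, but the spread in skin left Ahr short of the threshold (log2 fold change 2.77, SE 0.78, edgeR adjusted p = 0.0843). It passed without skin 1 (log2 fold change 3.09, adjusted p = 0.0317), with DESeq2 (adjusted p = 0.00244) and in limma-voom with a variance weight per tissue, chosen after seeing the data (adjusted p = 0.0189), while the least favourable alternative gave 0.464. The macrophage and dendritic cell sum was highest in skin 4 and lowest in skin 3, which hold the 2 highest Ahr values. The part of these cells in the Ahr values was not tested. Of 8 listed Ahr target genes, 3 were tested and none passed with edgeR, which at 7.24% over all genes is too few genes to tell from the background. Tiparp, which is induced by Ahr and limits it, was at 18.8 ± 5.22 CPM in the SDLN libraries (SD, n = 3) against 79.4 ± 44.6 CPM in those of skin (SD, n = 4), without overlap (log2 fold change 2.08, adjusted p = 0.0998). Gpr15 went the other way, at 45.2 against 18.9 CPM with no count in skin 1 and 2 (log2 fold change -1.26, adjusted p = 0.830). Nqo1, with counts in skin 3 alone among the skin libraries, had the median log2 fold change of the 3 tested targets, 0.12 (adjusted p = 0.991). Cyp1a1, the classical target, had 12, 4 and 4 counts in SDLN 1 to 3 and was too low to be tested. It had no count in skin, and 3 counts there correspond to 0.214 to 0.276 CPM per library. Cyp1b1, also a listed target, had 29.4 CPM in skin 3 and no count in any other library. Arnt, the partner Ahr needs to bind DNA, was at 83.9 against 96.6 CPM (adjusted p = 0.940).

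**Figure D2:**
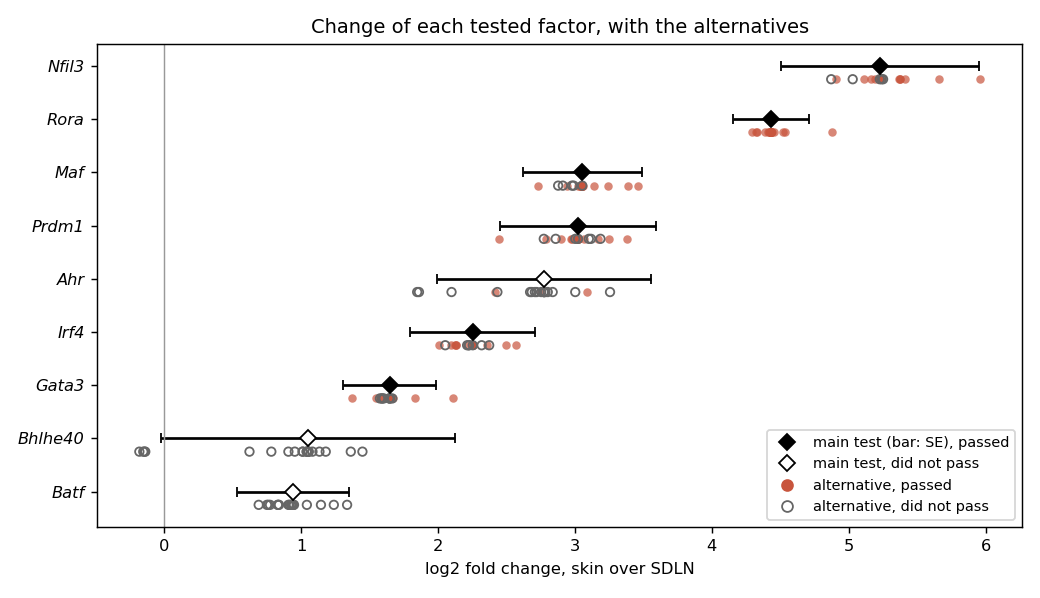
Log2 fold change of skin over SDLN (horizontal axis) for the 9 tested factors, ordered by size. Diamonds give the main edgeR result with its SE, filled where it passed, and circles give the 21 alternatives, filled where they passed; Rora is the 1 factor with filled circles throughout, and Batf and Bhlhe40 have none.

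Levels can be compared between genes only per length, and so CPM were divided by the kilobases of exon. This scale takes reads to cover all annotated exons evenly, which was not tested. On this scale Batf was the most abundant factor in every library, with 136 ± 46.6 in the SDLN libraries (SD, n = 3) against 260.2 ± 105 in those of skin (SD, n = 4). In SDLN it was followed by Gata3 (32.3), Irf4 (20.3), Bhlhe40 (14.3), Maf (11.1), Prdm1 (6.14), Rora (4.15), Ahr (2.22), Nfil3 (1.70) and Pparg (0.170), all as means of CPM per kilobase. Neighbours in that order whose libraries overlapped were Irf4 and Bhlhe40, Bhlhe40 and Maf, and Ahr and Nfil3. In skin the order of the means was Batf, Gata3 (101), Irf4 (96.6), Maf (92.2), Rora (89.6), Nfil3 (63.9), Prdm1 (49.9), Bhlhe40 (29.7), Ahr (15.2) and Pparg (0.0286). There the libraries of all neighbours overlapped except Ahr and Pparg. Gata3, Irf4, Maf and Rora thus lay within a narrow band of means in skin, whereas in SDLN their means ran from 4.15 to 32.3. Summed over the 10 genes, the length-scaled level was 196 to 275 in SDLN and 554 to 1047 in skin. Batf made up 51.1% to 68.4% of that sum in SDLN and 26.0% to 37.7% in skin. The share of Rora was 1.49% to 2.44% against 9.63% to 15.7%, that of Maf 3.97% to 5.76% against 9.88% to 13.8%, and that of Nfil3 0.401% to 1.12% against 5.97% to 9.55%. The shares of Gata3, Irf4, Prdm1, Bhlhe40, Ahr and Pparg overlapped between the tissues.

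**Figure D3:**
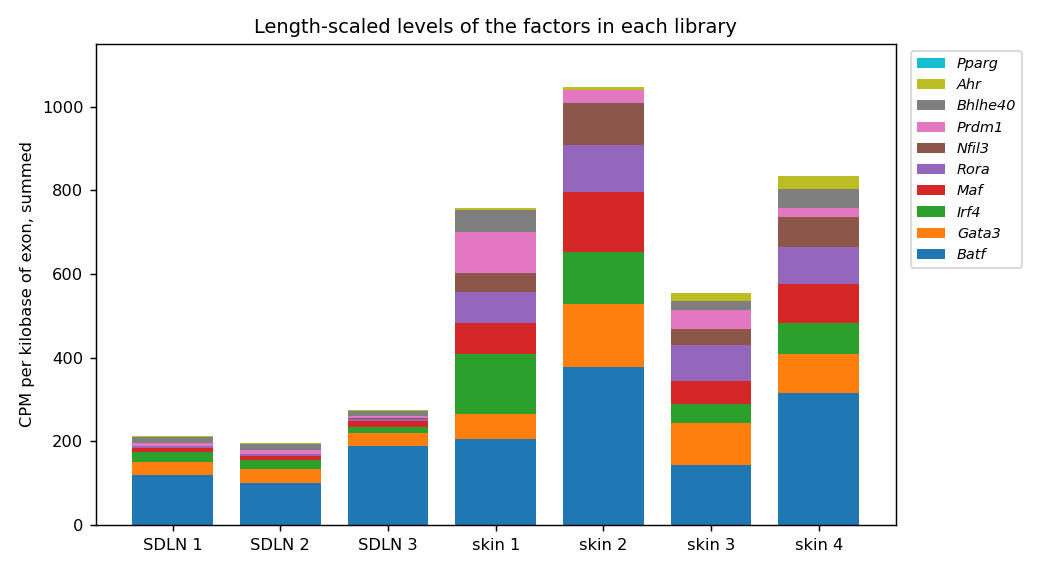
Length-scaled levels of the 10 factors (CPM per kilobase of exon, vertical axis from 0) stacked for each of the 7 libraries. Batf is the base of every bar and takes 51.1% to 68.4% of the SDLN bars and 26.0% to 37.7% of the skin bars, and the bars of skin 1 to 4 are higher than those of SDLN.

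Within skin the factors did not follow one common order of libraries. Of the 9 tested factors, 5 were highest in skin 2, 3 in skin 1, 1 in skin 4 and 0 in skin 3, and 4 were lowest in skin 3. Rora, Gata3, Batf, Maf and Nfil3 peaked in skin 2, Irf4, Prdm1 and Bhlhe40 in skin 1, and Ahr in skin 4. The median coefficient of variation of the 9 factors was 0.437 in skin, against 0.7499 over all tested genes, and 0.225 in SDLN, against 0.187. Skin 3 had the most keratinocyte and fibroblast transcripts and the lowest sum of Treg and T cell genes, 7641 CPM against 10743 to 13497 CPM in the other skin libraries, and Batf, Irf4, Maf and Nfil3 were lowest there. The part of the other cells in these values was not tested. The Treg and T cell genes included Lck, the most abundant of them in SDLN, which fell in skin (log2 fold change -1.12, edgeR adjusted p = 0.0406). They also included Ikzf2, which rose (log2 fold change 1.15, edgeR adjusted p = 0.0385), so their sum was no neutral scale. When libraries were scaled to this sum, the same number of factors, 6, passed. The median log2 fold change of all tested genes moved from 0.05 to 0.50. Relative to that shift the factors' values moved little, with Rora at 4.88 and Gata3 at 2.11 on that scale. Without skin 3 the log2 fold changes of Irf4, Maf and Nfil3 were 2.50, 3.24 and 5.41. That of Batf was 1.14, and Batf still did not pass (edgeR adjusted p = 0.125). In SDLN, library 3 had the highest values of Batf, Maf, Nfil3 and Ahr and the lowest of Gata3, Irf4, Prdm1 and Bhlhe40.

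**Figure D4:**
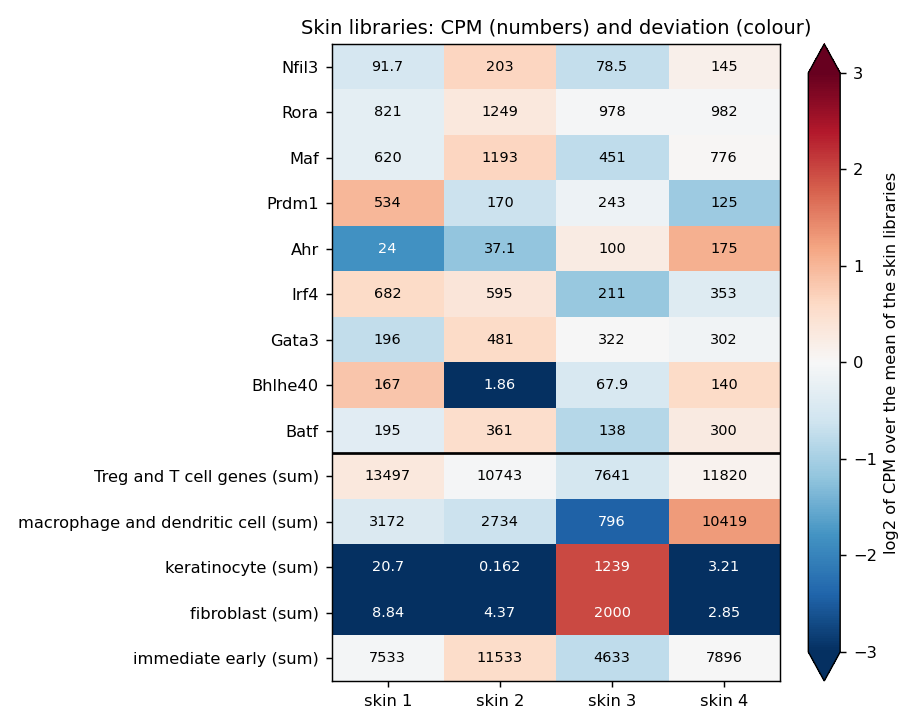
The 4 skin libraries (columns) for the 9 tested factors and for the sums of 5 lists (rows), with the CPM printed in each cell and the colour giving the log2 of that value over the mean of the skin libraries. Colours end at 3 in either direction. Among the factors Bhlhe40 in skin 2, at 1.86 CPM, is the 1 value at that end; skin 3 holds the keratinocyte and fibroblast sums and skin 4 the highest macrophage and dendritic cell sum.

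For each tested factor, the gene most like it over the 7 libraries was taken by Pearson correlation of log2 CPM among 6804 other genes whose mean reached 20 CPM. These correlations describe libraries that share the tissue difference. Maf was closest to Ccr8, a chemokine receptor of skin Tregs, at r = 0.998, with Ccr8 at 105 against 676 CPM. Rora was closest to Rundc1 (r = 0.998), Gata3 to Mpnd (r = 0.993), Nfil3 to Fam20a (r = 0.995) and Bhlhe40 to Kif16b (r = 0.996). Prdm1 was closest to the transporter gene Abcc1 (r = 0.994), Ahr to the histone methyltransferase gene Ash1l (r = 0.989) and Batf to the T cell adaptor gene Lime1 (r = 0.985). Irf4 was closest to Slfn10-ps (r = 0.994), a pseudogene whose reads may be shared with its family.

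Genes that work with or against the factors were read from lists chosen for their roles, to be set beside the 3.28% of all tested genes that were higher, the 3.96% that were lower and the median log2 fold change of 0.05. Of 19 family relatives, 11 were tested, 0 rose and 1 fell with edgeR, a number near that background, and their median log2 fold change was 1.53. Of 16 partners, 15 were tested and 4 rose, none fell, with a median of 0.69. Beside Junb these were Rxra, the common partner of nuclear receptors such as Pparg (19.1 ± 1.37 against 199 ± 105 CPM, adjusted p = 0.0176), Hif1a (92.5 ± 3.01 against 273 ± 68.1 CPM, adjusted p = 0.0274) and Runx3 (28.2 ± 3.96 against 160 ± 91.3 CPM, adjusted p = 0.0386). Of 10 factors listed for resting T cells, 2 fell and none rose, with a median of -1.77. These were Lef1 (log2 fold change -2.77, adjusted p = 0.00617) and Tcf7 (log2 fold change -6.39, adjusted p = 0.0380). Bach2, which restrains Prdm1, had 67.1 to 79.0 CPM in SDLN and 0.0920, 26.0, 4.94 and 14.8 CPM in skin, all below SDLN, and did not pass (log2 fold change -2.70, adjusted p = 0.306). Bcl6, which Prdm1 represses and which represses Prdm1 in turn, had 14.2 against 35.5 CPM, short of the threshold (adjusted p = 0.389).

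Effector products of tissue Tregs were also read. Of 30 such genes, 18 rose, none fell and 12 did not pass, with a median log2 fold change of 2.48. The 3 with the smallest adjusted p were Il1rl1, which encodes the receptor for interleukin-33 (log2 fold change 4.02, adjusted p = 0.00138), the suppressive product Fgl2 (27.4 ± 10.9 against 621 ± 205 CPM, log2 fold change 4.50, adjusted p = 0.00377) and the inhibitory receptor Ctla4 (log2 fold change 2.55, adjusted p = 0.00501). Many of these genes are known from the same cells as the factors, so their count is no independent support. Of 10 clock genes and Rora targets, 9 were tested, 5 rose and none fell, with a median of 2.32. They were Per1 (7.72 ± 0.933 against 149.9 ± 38.7 CPM, adjusted p = 0.00369), Arntl (17.7 ± 2.58 against 88.4 ± 30.7 CPM, adjusted p = 0.0380), Nr1d1 (9.80 ± 1.33 against 91.0 ± 72.5 CPM, adjusted p = 0.0380), Nr1d2 (adjusted p = 0.0410) and Per3 (adjusted p = 0.0410). Arntl is an activator of the clock, and Nr1d1 competes with Rora for the same sites. No source used here gives the time of day of the sorts. Immediate early, heat shock and other genes that respond to stimulation or to handling of cells were also read. Of all 18 listed, 9 rose and none fell, with a median log2 fold change of 4.66. Smallest in adjusted p were Fos (4.81 ± 1.11 against 1633 ± 799 CPM, log2 fold change 8.41, edgeR adjusted p = 0.00127), Nr4a1 (log2 fold change 4.35, adjusted p = 0.00127) and Dusp1 (log2 fold change 7.48, adjusted p = 0.00388). Egr1, Egr2 and Egr3 were among those that did not pass (log2 fold changes 0.06, -0.91 and 0.10). Their sum was 956 to 1127 CPM in SDLN and 7533, 11533, 4633 and 7896 CPM in skin 1 to 4, and their part in the factors' values was not tested. Of 14 macrophage and dendritic cell markers, 10 were tested and 4 rose, among them Lyz2, H2-Aa and H2-Ab1; Itgax had counts in skin 4 alone. Of 8 mast cell markers, 6 had no count in skin, and 4 of these had none in SDLN either. The other two were Kit, at 0, 0.162, 9.43 and 26.2 CPM in skin 1 to 4, and Hdc, at 18.2 CPM in skin 1, 2.38 CPM in skin 3 and no count in skin 2 and 4.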

How the data were processed

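The authors deposited raw read counts per gene symbol with no normalization. Per the submitters' processing notes, HTSeq 0.6.1, TopHat2 2.0.12, SAMtools 0.1.19.0, Bowtie2 2.1.0.0 and CASAVA 1.8.2 were used with mm10; the annotation and strand setting were not given in the sources used here. The 5 summary lines were left out of library sizes; alignments to several places made up 61.2% to 70.4% of all counts, and reads outside genes 10.0% to 17.1%. Columns were assigned by title.

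Genes were kept by filterByExpr (minimum count 10), scaled by TMM and tested with edgeR 4.0.16 in R 4.3.3 (quasi-likelihood, robust, tissue as sole term, two-sided) over all 11376 genes. SEs are the log2 fold change over the square root of F. CPM use TMM-scaled sizes. Exon lengths are the union of basic protein-coding transcripts. A count of 3 corresponds to 0.204 to 0.276 CPM. Alternatives used DESeq2 1.42.0 and limma 3.58.1, other scalings, filters and thresholds, a replicate block and each library left out. The test was tested on data simulated with the spread of the SDLN libraries, so the wider spread of skin was not covered. The members and lists were chosen with earlier results of these data known. Named genes are the members, up to 3 called genes per list with the smallest adjusted p, the most abundant marker of other cell types, and the nearest gene per factor; others named were chosen after their values were seen.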

Additional observations from a re-analysis of the deposited data

How the results depend on the processing

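Over all genes, 373 were higher and 451 lower in skin. The counts were 570 and 382 when scaled to Treg and T cell genes, 188 and 70 without the low-count filter, 285 and 99 where only means from 5 CPM upward were tested, 923 and 507 with DESeq2, 271 and 729 with limma-voom, 594 and 987 with a variance weight per tissue (chosen after seeing the data) and 72 and 16 at an adjusted p under 0.01. Leaving out 1 library gave 33 to 582 higher and 9 to 822 lower. With the replicate number as a block they were 44 and 12 on 7 libraries and 32 and 10 on 6. Of the factors, 6 were higher; 1 was with either replicate block and at an adjusted p under 0.01 (Rora in each), and 1 to 7 were with 1 library left out. Same-numbered libraries correlated at 0.0672, -0.00176 and -0.0402 in their deviations from the group means, and not every library correlated best with its own number. Correlations this small over so few libraries cannot decide on pairing. By Ddx3y and Xist, SDLN 3 was male and skin 3 female, so the number 3 did not mark the same animal. The numbers were not taken as pairs. The log2 fold change of Bhlhe40 turned from 1.05 to -0.14 with limma-voom, -0.14 with the variance weight per tissue, and -0.15 and -0.18 with the replicate block on 7 and 6 libraries; it did not pass in any of them. In these settings the median of all tested genes was -0.62, -0.62, -0.54 and -0.55, against 0.05, so Bhlhe40 stayed above that median. No factor was lower under any alternative run. Depth limits Pparg most, with 20 counts in all.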

Other observations

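Gata1, the Gata factor of red blood cells and mast cells, was the 1 relative of the factors that fell, and its pattern was sharp. It had 132, 138 and 134 CPM in SDLN and 0.0920, 0, 0 and 1.57 CPM in skin 1 to 4 (log2 fold change -8.26, edgeR adjusted p = 0.0329). Its relative Gata2 had no count in any library.

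Skin 2, where Bhlhe40 was nearly absent, was also low for Id3, a repressor of basic helix-loop-helix factors, with 0.0809 CPM against 60.3 to 246 CPM in the other skin libraries, and for Arnt, with 13.4 CPM against 91.5 to 186 CPM. Hlf, a leucine zipper factor that competes with Nfil3 for its sites, had 179 CPM in skin 2 and 0.184 CPM in skin 1, and did not pass (adjusted p = 0.188). These genes were chosen after their values were seen.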
